A study of Mus musculus with 11 samples.

Results

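The RecQ DNA helicases are a small family of enzymes that unwind double-stranded DNA and the branched structures that form when DNA is copied or repaired. Blm and Wrn take apart joined or looped DNA during recombination repair and at telomeres, Recql4 takes part in starting DNA replication, Recql acts at stalled replication forks, and Recql5 binds RNA polymerase II and limits clashes between transcription and replication. Inherited loss of the human counterparts of Blm, Wrn and Recql4 causes Bloom, Werner and Rothmund-Thomson syndromes, the second of which is known for early ageing of the blood vessels. The family was taken as the 5 genes Recql, Recql4, Recql5, Blm and Wrn, by the gene names that the array gives its probes. These are 5 of 36413 distinct names on the array. They had 8 of its 55681 probes, and 7 of these 8 were detected.

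RNA of the aorta was measured in male C57BL/6 mice aged 20 months, on 1 one-color Agilent array per mouse. The paper names the descending aorta in its methods and the whole thoracic aorta in its results. Sodium nitrate at 1 g/L was given in the water of 5 mice over 8 weeks. The 6 controls received sodium chloride at the same concentration as the paper states, while the labels name no chloride and describe these arrays as earlier samples analysed again. The paper counts 1 more nitrate treated mouse, whose array was not used here.

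The processed signal of each spot was put on the log2 scale and quantile normalized over the 11 arrays. A probe was counted as detected if the scanner software both found its spot and judged it above background on 5 or more arrays of a group. All 7 smooth muscle markers, all 6 endothelial markers and all 5 fibroblast markers were detected. All 8 adipocyte markers, 5 of 6 heart muscle, 3 of 6 skeletal muscle and 5 of 6 leukocyte markers were detected too. The mean of the adipocyte markers, relative to all mice, lay between -0.50 and -0.043 in nitrate treated mice and between -0.12 and 0.59 in controls, and controls 1 and 3 were highest. The mean of the heart muscle markers lay between -1.53 and 4.10 in nitrate treated mice and between -2.11 and 3.51 in controls, and nitrate treated mouse 4 and control 1 were highest. The arrays lay on 3 slides that each held both groups. Every control array was in column 3 of its slide and no nitrate array was, so slide column and treatment cannot be told apart.

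Each probe is a designed DNA of 60 bases, and its first 30 bases are shown because they tell which stretch of the transcript every value below refers to. Positions are in mm9, the build of the array files, and all the probes lie on the minus strand. Recql has probes at chr6:142311327-142311386 and chr6:142311196-142311255, Recql4 at chr15:76534171-76534230, and Blm at chr7:87600243-87600302. Recql5 has probes at chr11:115778296-115778355 and chr11:115754814-115754873, and Wrn at chr8:34346300-34346359 and chr8:34345859-34345918. A further probe, named by an Ensembl transcript and described in the files as Recql4, lies at chr15:76533984-76534043. Whether each lies in coding sequence or in a UTR was not analysed here.
Recql4 A_55_P2086423: ctggactttcatgccctgatgcacctagct
Recql4 A_55_P2156016, named by transcript: tggctgcaggaaggggataagaagatccaa
Blm A_51_P314418: aaacgacttctaaaagtaaattctatggtg
Wrn A_55_P2160862: gacaaggactccagttacagaaacaactaa
Wrn A_52_P478236: tttcttaatttgaatcttattataagacat
Recql A_55_P1990490: gcactgtctgaagctcgtcaggtggaacaa
Recql A_51_P297963: acttgatgatgcttgagtgtcacgtaatat
Recql5 A_55_P2144984: accgtctgataaggccaccctgctggcctt
Recql5 A_52_P167114: aggccgcagacattgtggtcaggcacctga
Over their 60 bases, the probes ranged in GC content from 21.7% for Wrn A_52_P478236 to 55% for Recql4 A_55_P2086423 and both Recql5 probes. The Wrn probe with 21.7% GC was the one that was not detected.

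The question of the comparison was how nitrate in the diet changes the RNA of the aged aorta. The members were picked with this contrast in view, so their differences and the count of members called are a description and no evidence of an effect. Recql4 signal was 3.08-fold lower in nitrate treated mice than in controls. The other 4 helicases differed by at most 0.27 on the log2 scale, and each of their probes had overlapping groups. Blm and the dimmer Recql5 probe were higher in nitrate treated mice, by 0.26 and 0.27, with standard errors of 0.19 and 0.12. The brighter Recql probe and the detected Wrn probe differed by 0.0052 and 0.067, and the other Recql probe by 0.17 (SE 0.13). In RNA of undivided aorta tissue, fewer cells of a type and less RNA per cell cannot be told apart. By the rule of the paper (unadjusted P under 0.05 and a fold change above 1.2), 2 of the 7 detected probes were called, Recql5 A_52_P167114 higher and Recql4 lower. The Recql5 probe was just over the limit, at 1.21-fold, and its difference was under that limit with 75th percentile scaling (0.26), normexp background correction (0.095), or without control 6 (0.21), nitrate treated mouse 3 (0.22) or mouse 5 (0.23). Over all 23632 detected probes, 4.16% were called higher and 4.85% lower. The groups did not overlap for 1 member probe, that of Recql4, and for 2.75% of all detected probes.

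**Figure D1:**
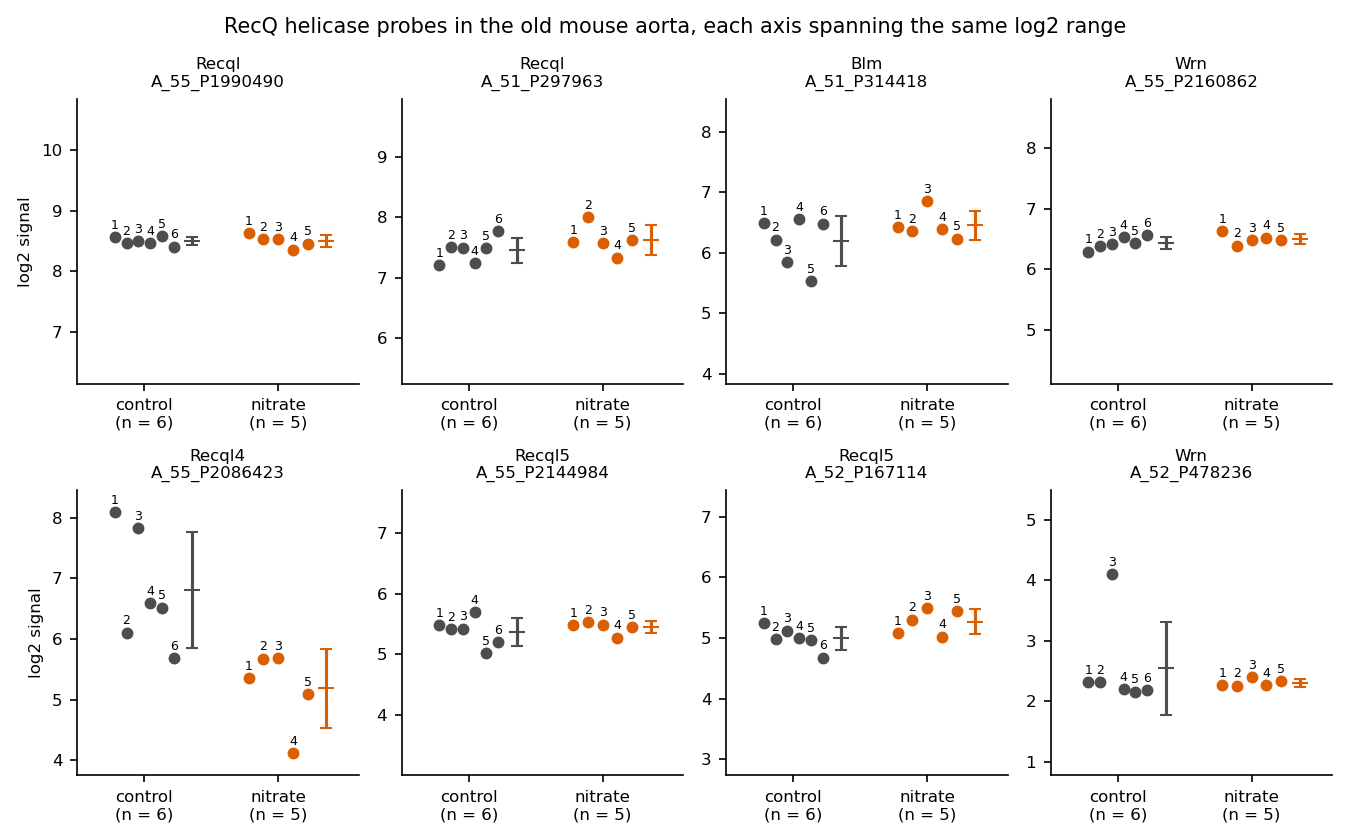
Log2 signal of the 8 member probes in every mouse, with control mice in grey and nitrate treated mice in orange. Numbers are the mouse numbers, and bars show the mean ± SD (n = 6 and n = 5). Every vertical axis spans the same log2 range. Only the Recql4 groups do not overlap, with nitrate treated mice between 4.12 and 5.68 and controls between 5.69 and 8.09, and control 3 stands alone at 4.10 on the undetected Wrn probe.

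Recql4 carries a helicase core joined to a stretch that helps load the replication machinery onto DNA. Its log2 signal in nitrate treated mice 1 to 5 was 5.35, 5.68, 5.68, 4.12 and 5.09. In controls it had a lowest value of 5.69 in mouse 6, a median of 6.56 and a highest value of 8.09 in mouse 1. All 5 nitrate treated mice were thus below every control, but nitrate treated mice 2 and 3 and control 6 lay side by side, and controls 1 and 3 (7.83) stood above the other controls. The difference, nitrate minus control, was -1.62 (SE 0.44, n = 5 and 6). The spot passed both of these criteria on all 11 arrays, at processed signals from 19.9 in nitrate treated mouse 4 to 252.6 in control 3.

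The size of the Recql4 difference depended on which mice were set against each other. It was -1.58 within slide 1, -0.46 within slide 2 and -2.57 within slide 3. Since every nitrate treated mouse lay below every control, the sign on each slide was fixed, and only the sizes carry information. Leaving out 1 mouse at a time gave a difference of -1.84 without control 6 to -1.35 without nitrate treated mouse 4. Without control 1 the difference was -1.36. With normexp background correction in place of the background subtraction of the scanner software, which adds an offset of 50 to every spot, it was -0.89.

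The transcript-named Recql4 probe gave a second reading of the gene from the same arrays. Its values in nitrate treated mice 1 to 5 were 5.37, 5.09, 5.27, 5.17 and 4.50. In controls they ran from 5.28 in mouse 6 to 7.97 in mouse 1, with a median of 6.37. Here the groups overlapped, by control 6 alone, which lay between nitrate treated mice 1 and 3. The difference was -1.53 (SE 0.43), close to that of the other probe. Deviations from the group mean on the 2 probes had r = 0.84 over the 11 mice and r = 0.996 over the 6 controls, a description of 2 probes read on the same RNA. The probes parted most on nitrate treated mouse 4, at 4.12 on the first, the lowest of its group, and at 5.17 on the second, the middle value. They also parted on nitrate treated mouse 2, at 5.68 and 5.09, and on mouse 5, at 5.09 and 4.50. For the nitrate treated mice alone, r was not worked out.

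Recql4 also stood out by how much mice of one group differed. Its SD was 0.96 among controls and 0.65 among nitrate treated mice, against a median over detected probes of 0.18 and 0.16. Among controls, 99.6% of detected probes had a smaller SD, and among nitrate treated mice 98.5% did. The second probe had a larger SD than 99.7% among controls and than 87.9% among nitrate treated mice. Of the detected probes of the other members, that of Blm had the largest SD among controls, above that of 92.3% of detected probes.

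**Figure D2:**
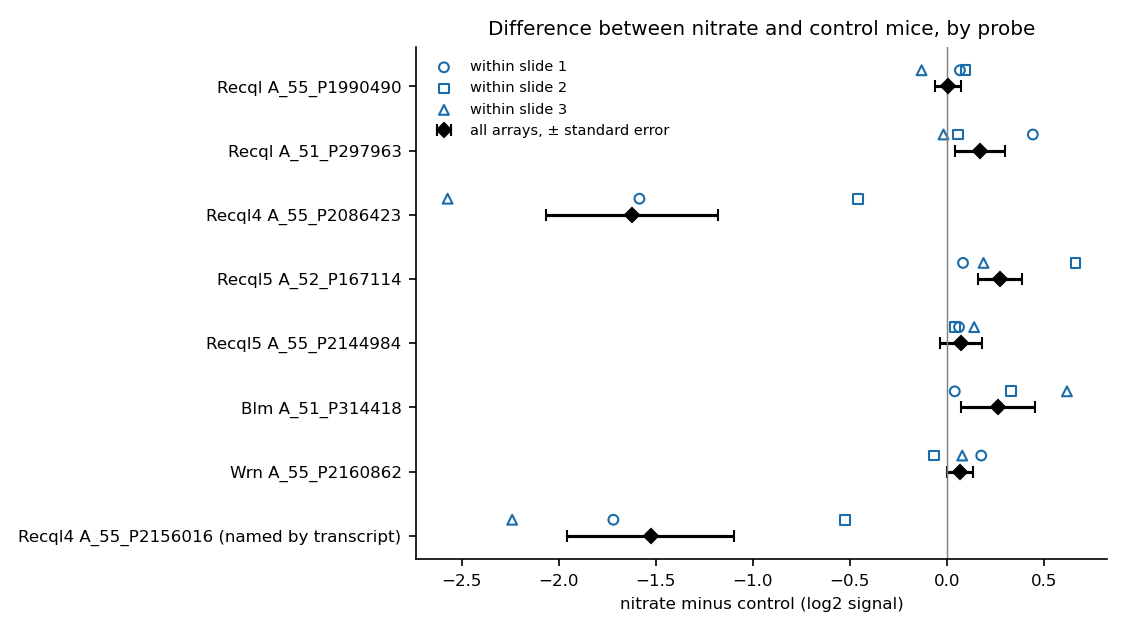
Nitrate minus control in log2 signal for each detected probe, with diamonds for all 11 arrays, bars for the standard error, and open symbols for the values within slides 1, 2 and 3. Both Recql4 probes lie left of 0 on every slide, from -2.57 to -0.46, and the probes of the other members lie between -0.13 and 0.66.

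Blm unwinds crossed DNA strands together with topoisomerase III alpha and the Rmi proteins, and so keeps exchanges between sister chromatids low. Its log2 signal in nitrate treated mice 1 to 5 was 6.43, 6.36, 6.85, 6.39 and 6.24. In controls the lowest value was 5.54 in mouse 5, the median 6.35 and the highest 6.56 in mouse 4. Control 3 was also low, at 5.85, and the other 4 controls lay among or beside the nitrate treated mice. The difference was 0.26 (SE 0.19). It was 0.040 within slide 1, 0.33 within slide 2 and 0.62 within slide 3, and leaving out 1 mouse gave 0.13 without control 5 to 0.34 without control 4.

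The 2 low controls of Blm were both on slide 3. With group in the fit, Blm differed between slides by limma's F test at an unadjusted P of 0.00235, and its adjusted P over all detected probes was 0.0761. Slide means were 6.38, 6.63 and 6.00 for slides 1, 2 and 3. Across the array, 18% of 23617 detected probes with values for this fit had an unadjusted P under 0.05 for slide and 1.97% an adjusted P under 0.05. Of the members, Blm alone had an unadjusted P under 0.05 for slide, and the adjusted P of the other detected member probes lay between 0.563 and 0.971. With scaling to the 75th percentile instead of quantile normalization, 1 member probe passed the adjusted threshold, and with the log2 values of the authors none did.

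**Figure D3:**
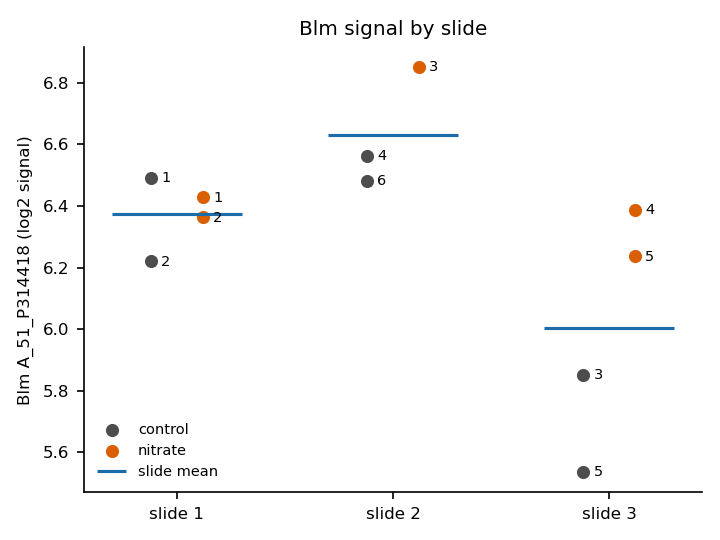
Log2 signal of Blm by slide, with each point a mouse marked by its number, controls in grey, nitrate treated mice in orange, and blue lines for slide means of 6.38, 6.63 and 6.00. The lowest 2 mice, controls 3 and 5, are on slide 3, where both nitrate treated mice lie above both controls.

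Wrn is the member that also has an exonuclease, which trims DNA ends. Its detected probe read 6.64, 6.39, 6.48, 6.52 and 6.49 in nitrate treated mice 1 to 5. In controls it read 6.29 at the lowest, 6.43 at the median and 6.57 at the highest. The groups overlapped, and the difference was 0.067 (SE 0.069). It was -0.065 within slide 2, and leaving out 1 mouse gave 0.034 to 0.095. The SD of 0.099 among controls was above that of only 15.3% of detected probes. The other Wrn probe was not well above background on any of the 11 arrays, so no fold is given for it. It read between 2.16 and 2.39 in all mice except control 3, which read 4.10.

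Recql is a member that acts at stalled forks. Its brighter probe read 8.63, 8.53, 8.53, 8.36 and 8.45 in nitrate treated mice 1 to 5, and 8.41, 8.48 and 8.58 at the lowest, median and highest control. The difference was 0.0052 (SE 0.065), from -0.028 to 0.041 with 1 mouse left out, and 4.37% of detected probes had a smaller SD among controls and 24.2% among nitrate treated mice. Its other probe, nearer the end of the transcript by the strand and position in the files, read 7.59, 8.00, 7.57, 7.33 and 7.62 in nitrate treated mice. In controls it ran from 7.21 to 7.77 with a median of 7.49, a difference of 0.17 (SE 0.13) with overlapping groups. It was 0.44, 0.057 and -0.018 within slides 1, 2 and 3, and 0.075 without nitrate treated mouse 2. Of all detected probes, 58.6% had a smaller SD among controls and 72.4% among nitrate treated mice. Deviations on the 2 Recql probes had r = 0.049 over the 11 mice and -0.55 over the 6 controls.

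Recql5 was also read by 2 probes. The brighter one, A_55_P2144984, read 5.48, 5.53, 5.48, 5.27 and 5.44 in nitrate treated mice, and 5.02, 5.41 and 5.69 at the lowest, median and highest control. Its difference was 0.074 (SE 0.11), and leaving out 1 mouse gave 0.0035 without control 5 to 0.14 without control 4. The dimmer one, A_52_P167114, read 5.09, 5.30, 5.50, 5.02 and 5.45 in nitrate treated mice, and 4.68, 4.99 and 5.24 at the lowest, median and highest control. Nitrate treated mice 2, 3 and 5 lay above every control on that probe and mice 1 and 4 among them, with a difference of 0.27 (SE 0.12). Within slides it was 0.083, 0.66 and 0.19. The software found the spot and called it well above background on 4 of 5 nitrate and 5 of 6 control arrays for the dimmer probe, and on 3 and 6 for the brighter one. The brighter probe was well above background on all 11 arrays and missed only because its spot was not found, as did the dimmer one on nitrate treated mouse 4, while the dimmer one on control 6 was not well above background. Deviations on the 2 probes had r = 0.43 over the 11 mice.

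Tests that leave out the nitrate contrast asked whether members varied together among mice of one group. Deviations from the group mean were correlated over 25 pairs, members with each other and with the means of the proliferation, adipocyte and heart muscle markers. P values came from a two-sided exact permutation within groups, and 3 were under 0.05 before and none after adjustment over the 25. The strongest was Recql4 with the 14 detected proliferation markers, genes of the dividing cell such as Mki67 and Plk1, with r = 0.77 (exact P = 0.00501, adjusted P = 0.125, n = 11) and rho = 0.81 (exact P = 0.00565, adjusted P = 0.141). Without nitrate treated mouse 2 and control 3, whose deviations in these markers were farthest from the median, r was 0.84. Leaving out 1 mouse at a time gave 0.69 to 0.86, and the value without control 1 was 0.83. With normexp background correction r was 0.68 and the adjusted P 0.0284. None of the 14 proliferation markers was called between the groups, but 1 or 2 were in 14 of the alternatives, 1 lower with 75th percentile scaling and 1 higher without control 1. Plk1 missed the fold limit alone, at 0.26 (unadjusted P = 0.0237).

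Recql4 with the adipocyte markers had r = 0.65 (exact P = 0.0542, adjusted P = 0.283) and rho = 0.65 (adjusted P = 0.254). This rested on controls 1 and 3, the mice with the highest Recql4 and the highest adipocyte markers of their group: without them r was -0.10. Among the 6 controls alone r was 0.97 (exact P = 0.00694, adjusted P = 0.156). Of the 8 adipocyte markers, 4 were called lower in nitrate treated mice (Adipoq, Retn, Cfd and Lipe) and none higher, a share of 50% against 4.85% of all detected probes. The groups did not overlap for 2 of the 8, against 2.75%. The list had a median difference of -0.38, and each of its genes had an adjusted P of at least 0.130. All 7 smooth muscle markers were on the higher side in nitrate treated mice, with a median difference of 0.15, as were all 5 fibroblast markers, with a median of 0.12. Of the other 6 marker lists, only the smooth muscle list held a called gene, Lmod1, which was higher by 0.31 (SE 0.11, adjusted P = 0.285). The paper states that fat around the vessel was removed before freezing. The part of fat cell RNA in the Recql4 difference was not tested.

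Among members, Recql with Recql4 had the highest r, at 0.64 (exact P = 0.0284, adjusted P = 0.283) and rho = 0.61 (adjusted P = 0.254). Wrn ran the other way to the adipocyte markers, at r = -0.68 (exact P = 0.0372, adjusted P = 0.283) and rho = -0.61 (exact P = 0.0611, adjusted P = 0.254). Recql5 with the proliferation markers had r = 0.54 (exact P = 0.0567, adjusted P = 0.283) and rho = 0.76 (exact P = 0.0116, adjusted P = 0.146). None of these 3 passed the adjusted threshold. Blm and Wrn, which meet at recombination and at telomeres, had r = 0.13 (exact P = 0.740). Recql4 with the heart muscle markers had r = -0.11 (exact P = 0.742, adjusted P = 0.921). Without nitrate treated mouse 4 and control 1, that r was -0.74, and leaving out 1 mouse at a time gave -0.80 to 0.29.

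**Figure D4:**
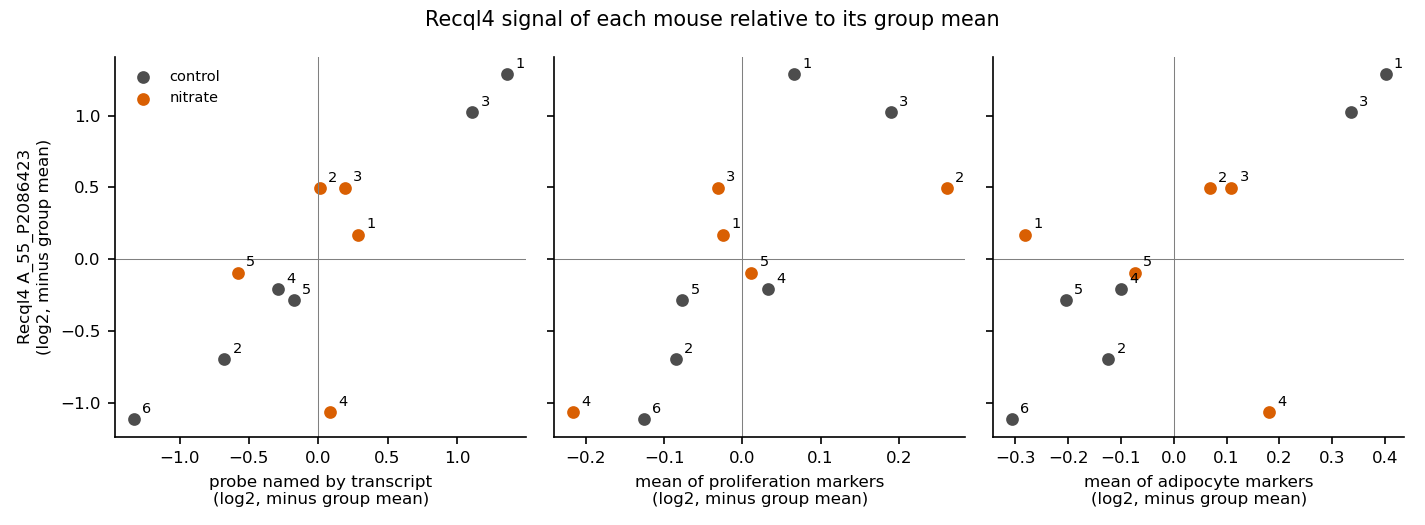
Recql4 log2 signal of each mouse minus its group mean, against the same for the transcript-named Recql4 probe, the mean of 14 proliferation markers and the mean of 8 adipocyte markers. Grey points are controls and orange points nitrate treated mice, with mouse numbers. Correlations over the 11 mice are 0.84, 0.77 and 0.65, and controls 1 and 3 lie at the upper right of all 3 panels.

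For each member, the 3 detected probes with a RefSeq gene name whose deviations over the 11 mice were most like its own are given as a description, with no test. For Recql4 they were Gm7049 (r = 0.97), Me1 (r = 0.95), the malic enzyme that makes NADPH, and Fah (r = 0.95), an enzyme of tyrosine breakdown. For Recql they were Gart (r = 0.94), an enzyme of purine synthesis, Nap1l4 (r = 0.91), a histone chaperone, and Mup2 (r = 0.89), whose near-identical relatives can share its signal. For Blm they were Padi1 (r = 0.97), Olfr362 (r = 0.95) and Adam11 (r = 0.94). For Wrn they were Cnot4 (r = 0.96), Exoc8 (r = 0.95) and Ppp1cb (r = 0.93), and for Recql5 E130311K13Rik (r = 0.95), Ano2 (r = 0.91) and Celsr2 (r = 0.91). Lower in the ranking for Recql4, among genes of other kinds, stood genes of sterol and fatty acid synthesis. These included Sc4mol (r = 0.94), Idi1 (r = 0.92), Acaca (r = 0.91), Elovl6 (r = 0.91), Fasn (r = 0.91) and Acly (r = 0.90), also with no test.

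None of the detected genes next to a member on the chromosome was called between the groups. Beside Recql4, Mfsd3 differed by -0.20 (SE 0.14, adjusted P = 0.548) and Lrrc14, which missed the detection rule, by -0.16 (SE 0.063). Beside Blm, Furin differed by -0.17 (adjusted P = 0.368) and Crtc3 by 0.15 (adjusted P = 0.625). Beside Recql, Pyroxd1 differed by 0.16 and Golt1b by 0.048, and beside Wrn Purg differed by 0.14. Myo15b beside Recql5 and Gm3985 beside Wrn were not detected, and no probe was matched to Smim5, the other neighbour of Recql5.

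The RecQ partners are genes whose proteins work with the helicases. Of 18 listed, 14 were detected, 1 was called higher and 0 lower, a share of 7.14% called against 4.16% higher and 4.85% lower over all detected probes, with a median difference of 0.035 against 0.014 over all detected probes. The one called was Ubr2, a ubiquitin ligase of the family that binds RECQL4, higher by 0.33 (SE 0.14, unadjusted P = 0.0330, adjusted P = 0.317). No partner was called in 12 of the alternatives, among them normexp background correction, the replicate block, and leaving out control 1, 2, 5 or 6 or nitrate treated mouse 2, 4 or 5. Of the partners of Blm, Top3a differed by 0.052 (SE 0.066) and Rmi1 by -0.091 (SE 0.087), while Rmi2 was not detected. The single-strand binding subunits Rpa1, Rpa2 and Rpa3 differed by 0.059, 0.10 and -0.062, and Fen1, the flap nuclease that Wrn stimulates, by 0.14 (SE 0.098). The telomere proteins Terf1, Terf2 and Pot1a differed by 0.10, -0.00066 and -0.0056. Parp1, a sensor of DNA breaks, differed by -0.20 (SE 0.085, adjusted P = 0.318), and Top3b and Supv3l1 differed by 0.10 and -0.19. Mcm10, through which Recql4 meets the replication machinery, was not detected, nor were the nucleases Dna2 and Exo1.

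The other genes of DNA unwinding, repair and copying were described as lists. Of 27 other DNA helicases 19 were detected, and 1 was called, Twnk, the helicase of mitochondrial DNA, which differed by -0.38 (SE 0.10, adjusted P = 0.166), and none with normexp background correction. In that list 2 were called without control 4 or nitrate treated mouse 1, with no detection filter, or with detection on 4 of 5 nitrate or 5 of 6 control arrays. Of 30 homologous recombination and Fanconi genes 17 were detected and 1 was called, Atm, the kinase that answers DNA breaks, higher by 0.27 (SE 0.079, adjusted P = 0.207). No gene of that list was called with 75th percentile scaling, normexp background correction, slide or replicate as a block, or without control 6 or nitrate treated mouse 2 or 5. Of 14 end joining genes 13 were detected and 1 was called, Polm, a polymerase that fills gaps at broken ends, higher by 0.35 (SE 0.071, adjusted P = 0.107). Without control 3, control 5, nitrate treated mouse 1 or nitrate treated mouse 5, 2 end joining genes were called. None of the 12 detected telomere genes or 29 detected replication fork genes was called, though 1 telomere gene was called lower without nitrate treated mouse 5 and 1 higher with no detection filter or with detection on 4 of 5 nitrate or 5 of 6 control arrays, and leaving out 1 mouse gave 0 to 2 replication fork genes, with 2 without nitrate treated mouse 3 and 1 without nitrate treated mouse 1 or control 5. Over all 7 pathway lists, 3 of 118 detected genes were called higher and 1 lower, against 4.16% and 4.85% of all detected probes, and 2 had groups that did not overlap, Polm and Fance, against 2.75%. The split was 2 higher and 2 lower with 75th percentile scaling or slide as a block, 1 and 2 with the replicate block, 1 and 3 without nitrate treated mouse 5, and 7 and 1 without nitrate treated mouse 1. The median difference was 0.052. The Recql4 difference of -1.62 was below those of all 118 genes, which ran from -0.38 to 0.35. That ordering is a description, since Recql4 was picked on this contrast.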

How the data were processed

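RNA of the aorta of 11 mice, 5 nitrate treated and 6 controls, was measured on one-color arrays. The authors deposited spot intensities written by Feature Extraction 10.7.1.1, background-subtracted and not normalized between arrays, and a table of log2 values, quantile normalized and centred on the median of the arrays. Groups came from the labels.

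Processed signals were raised to at least 1, log2 transformed and quantile normalized, control and outlier-flagged spots being left out. At most 186 of the 59305 gene spots of an array were flagged and 0 were saturated. The number of arrays limits the precision. Probes detected on at least 5 arrays of a group were tested with R 4.3.3 and limma 3.58.1 (lmFit, eBayes) and called where, as the paper did, the unadjusted P was under 0.05 and the fold change over 1.2, with Benjamini-Hochberg adjustment. Scripts were tested on simulated data. Each gene was represented by its brightest detected probe. Of 209 genes in the pathway and marker lists, 191 matched by symbol, 17 by an older name in a RefSeq table of GRCm38 and 1 did not.

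The members, lists and tests were chosen with earlier results of these data known. The genes named were all members, the RecQ partners (1 is not reported here), called genes of the other lists, the gene on each side of a member in RefSeq, and the 3 probes most like each member. Mki67, Plk1, Fance, Sc4mol, Idi1, Acaca, Elovl6, Fasn and Acly were added to these with their values known. Alternatives covered normalization, background correction, the deposited table, flagged spots, detection, prior variance, threshold, choice of probe, slide and replicate number as blocks, and each array left out. Those for the slide test were chosen after seeing the data.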

Additional observations from a re-analysis of the deposited data

Results flagged for a closer look

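In 46 groups of 4 to 10 mice, 3 held a mouse far from the others of its group, and chance flags about 1 in 20 groups, here 2.3. On the undetected Wrn probe A_52_P478236, control 3 read 4.10, and its gap to the nearest control was 0.921 of the range of the group. Among controls, the mean of the smooth muscle markers was lowest in control 1, at -0.33, with a gap of 0.852 of the range. Among controls, the mean of the heart muscle markers was highest in control 1, at 3.51, with a gap of 0.637 of the range.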

How the results depend on the processing

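The Recql4 difference ran from -2.57 within slide 3 to -0.46 within slide 2 over all alternatives run. As its groups did not overlap, its sign was fixed within slides and with any mouse left out, and is no further evidence. With the replicate block, which drops control 6, the Recql4 difference was -1.84. Same-numbered mice did not deviate together (correlations over probes of 0.010, 0.12, -0.14, -0.13 and 0.18 for numbers 1 to 5). These correlations cannot show whether mice were paired in how they were kept or processed. Of the 118 pathway genes, 3 were called with the replicate block against 4 without it. Within slides, the brighter Recql probe differed by 0.096 on slide 2 and -0.13 on slide 3, Wrn by 0.18 on slide 1 and -0.065 on slide 2, and Blm by 0.62 on slide 3. Pathway genes called numbered 1 with normexp background correction, 7 with detection on 4 of 5 nitrate or 5 of 6 control arrays, 18 with no fold change limit and 0 with an adjusted P under 0.05. Leaving out 1 mouse gave 3 to 8, with 8 without nitrate treated mouse 1 and 8 without nitrate treated mouse 3. With 75th percentile scaling, 1 member probe had an adjusted P under 0.05 for slide against 0 otherwise. The cause of these shifts was not tested. Signal over background limits the second Wrn probe, which was detected on no array.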
